A study of Mus musculus with 24 samples.

Results

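The response of skeletal muscle to tamoxifen alone was read in 12 of the 24 libraries of the series, those of mice that carried no Cre recombinase. The muscle was the gastrocnemius, the large calf muscle, and RNA was counted per gene by sequencing. All 12 libraries come from mice with floxed alleles of Numb and Numbl, written Numb(f/f)/NumbL(f/f) in the labels and called flox mice here, so tamoxifen met no recombinase in them. They form 4 groups of 3: females given vehicle, females given tamoxifen, males given vehicle and males given tamoxifen. The males are titled WT in the labels, although their genotype field names the same floxed alleles. The other 12 libraries come from mice that also carried HSA-MCM, a tamoxifen-activated Cre driven by the human skeletal actin promoter, and serve here only as a separate set of tamoxifen and vehicle libraries. The sources used here state no age, strain background, dose or time from dosing to collection. Females and males lie in separate count tables, so sex and table cannot be told apart. Nothing in the labels says that replicates are separate animals, so each p-value covers only the spread among these libraries, which may be technical.

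Tamoxifen is a ligand of oestrogen receptors that blocks or mimics oestrogen depending on the tissue. In mouse genetics it is given to switch on Cre recombinases fused to a mutated oestrogen receptor domain, and mice without Cre that receive the drug are the control for its own effects. Skeletal muscle expresses oestrogen and androgen receptors, keeps a circadian clock of its own and responds to glucocorticoids.

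The flox libraries held 21516819 to 43014516 counts, with 36099031 to 43014516 in females and 21516819 to 29982077 in males. Myh4, the fast myosin of this muscle, was the most abundant gene in each and took 6.36% to 8.07% of counts. Esr1, whose ligand-binding domain is part of the Cre fusion, lay at 25 to 43.2 CPM, counts scaled to library size, in the flox libraries and at 408 to 1906 CPM in the transgene libraries, which separates the genotypes as labelled. Over the 12 libraries the first principal component of log2 CPM held 73.6% of the variance and separated the tables. After removal of each table's mean, the first component held 24.1%. It placed the male vehicle libraries at -31.2, -20.3 and -33.5 and the male tamoxifen libraries at 25.9, 24.4 and 34.7. Female libraries were less far apart on it, at -12.0, -3.06 and -2.03 after vehicle and at 18.1, -4.40 and 3.35 after tamoxifen. A pair of libraries stood apart from their group. Male vehicle library 3 had the heat shock gene Hspa1a at 258 CPM, against at most 11.7 CPM in the other 11, and female tamoxifen library 1 had a low level of the slow myosin gene Myh7. The clock, glucocorticoid, heat shock and interferon lists are given with and without male vehicle library 3. The clock, heat shock and slow fibre lists are given without female tamoxifen library 1 and without both.

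Tamoxifen was compared with vehicle over both tables at once, with the table as a block and a drug effect common to both. CPM given below were scaled by TMM, which corrects for composition, over the 12 libraries. Of 16194 genes tested, 342 passed an adjusted p of 0.05 in edgeR's quasi-likelihood test, or 2.11%. They comprised 187 higher after tamoxifen (1.15%) and 155 lower (0.957%), and 2758 genes had an unadjusted p under 0.05. Changes of at least 2-fold were seen in 63 rises and 30 falls (0.574% of genes tested). The median log2 change was 0.64 among the rises and -0.48 among the falls, against 0.01 over all genes tested. In 248 of the 342 genes, or 72.5%, every tamoxifen library lay beyond every vehicle library of its own table in both tables and in the called direction, against 522 of the 16194 genes tested (3.22%; 1.79% higher and 1.43% lower). The calls and this separation come from the same libraries, so the larger share follows from the selection and is no separate support. Protein-coding genes made up 296 of the 342, and 106 overlapped exons of another annotated gene, so that their counts are uncertain. The count of 342 fell to 208 without female vehicle library 1, to 139 and 156 without male vehicle library 1 and 2, and to 189, 170 and 178 without male tamoxifen library 1, 2 and 3, and rose to 584 without female tamoxifen library 2. DESeq2 called 794 genes.

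The largest rise was that of Flrt1 (chromosome 19, 7092001 to 7105729, minus strand, GRCm38), which encodes a leucine-rich repeat membrane protein of cell adhesion and FGF signalling. Its CPM were 1.0, 2.21 and 1.49 in vehicle females and 43.1, 8.49 and 53.6 in tamoxifen females. Vehicle males had 1.66, 2.29 and 1.89 CPM and tamoxifen males 211, 213 and 207 CPM. The gene was thus at or below 2.29 CPM in all 6 vehicle libraries and higher in all 6 tamoxifen libraries, with female tamoxifen library 2 the lowest of them. The pooled log2 change was 5.65 ± 0.62 (SE) with an adjusted p of 0.00279 in edgeR's test, and the difference between males and females did not pass (adjusted p = 0.40). Flrt1 lies inside Macrod1, a gene of the opposite strand, which fell by 0.52, while the neighbouring deubiquitinase gene Otub1 rose by 0.34. No other run of genes past the threshold with gaps of at most 100 kb held more than 2, and 9.06% of the genes past the threshold had another within that gap, against 8.95% of all genes tested.

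**Figure D1:**
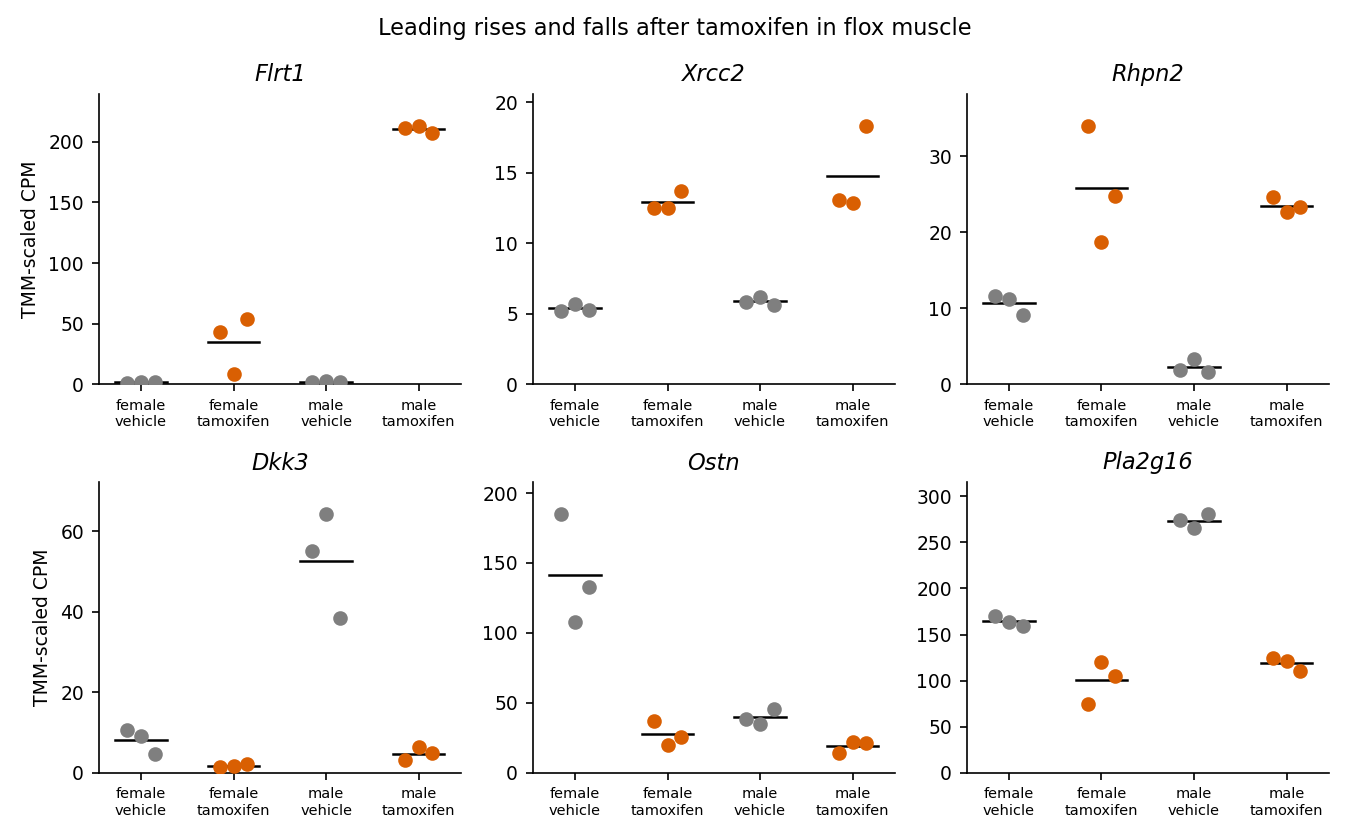
TMM-scaled CPM of 6 genes in each flox library, by sex and treatment (points are libraries, bars are group means, n = 3 each, linear axes from 0). Flrt1, Xrcc2 and Rhpn2 are higher and Dkk3, Ostn and Pla2g16 lower in all tamoxifen libraries of each table, with starting levels of Dkk3, Ostn and Rhpn2 that differ between the tables.

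The most regular rise was that of Xrcc2 (chromosome 5, 25689812 to 25705825, minus strand), a DNA repair gene. It lay at 5.21, 5.71 and 5.30 CPM in vehicle females and 12.5, 12.5 and 13.7 CPM in tamoxifen females. In males the values were 5.85, 6.17 and 5.64 CPM after vehicle and 13.1, 12.9 and 18.3 CPM after tamoxifen. Levels in the 2 tables lay close together before and after the drug, and the pooled log2 change of 1.29 ± 0.09 had the smallest p of all genes (adjusted p = 7.16e-06, edgeR). Fam174b, a membrane protein gene that overlaps an antisense gene, went from 1.19 to 1.90 CPM to 3.83 to 4.44 CPM in females and from 1.11 to 1.71 CPM to 4.41 to 5.44 CPM in males (log2 change 1.59 ± 0.16, adjusted p = 0.000182). Ccdc125 rose from at most 1.07 CPM to at least 2.14 CPM (log2 change 1.78 ± 0.18, adjusted p = 0.000259).

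Rhpn2, which encodes a scaffold protein, started from different levels. It lay at 11.6, 11.3 and 9.06 CPM in vehicle females and 34.0, 18.7 and 24.7 CPM in tamoxifen females, and at 1.82, 3.26 and 1.62 CPM in vehicle males and 24.6, 22.6 and 23.3 CPM in tamoxifen males. Both sexes reached a like level from unlike starts. The log2 change was 1.28 in females and 3.37 in males, and this difference passed the test (2.09 ± 0.36, adjusted p = 0.0471). Its pooled change of 2.18 ± 0.39 had an adjusted p of 0.0246 and was lost on leaving out any of 5 male libraries (male vehicle 1 or 2, or male tamoxifen 1, 2 or 3; adjusted p up to 0.0759).

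Other large rises with no overlap in either table took in genes of several kinds. Stum, a membrane protein gene named for a role in mechanical sensing in flies, rose by 2.25 ± 0.33, Vash2, a tubulin carboxypeptidase, by 2.12 ± 0.26, and Cyp4f39, a cytochrome P450 of fatty acid hydroxylation, by 2.08 ± 0.29. The transcription factor gene Sox12 rose by 1.54 ± 0.22, the calmodulin-like Calml4 by 1.70 ± 0.25, Efhc2 by 1.58 and the X-linked Xlr3b by 2.22. Arrdc2, an alpha-arrestin gene, rose by 2.33 ± 0.43 from 10.9 to 57.6 CPM in vehicle females and 14.6 to 31.9 CPM in vehicle males to 101 CPM or more in all 6 tamoxifen libraries. Aldh3a1, an aldehyde dehydrogenase, rose by 4.01 ± 0.73 but stayed at 8.22 CPM or less, and the sulfotransferase gene Chst2 and Ccdc141 rose by 1.68 and 1.57. Of the 15 largest rises, 10 held in each of the 12 fits with 1 library left out. The call of Aldh3a1 was lost without male vehicle library 1, 2 or 3 or male tamoxifen library 2 (adjusted p up to 0.0825), and those of Rhpn2, Arrdc2, Chst2 and Ccdc141 were lost in 5, 7, 9 and 7 of these fits.

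In a list of 18 genes of muscle signalling, mostly secreted factors, 0 rose and 3 fell in edgeR's test, with a median of -0.09. Of all genes tested, 1.15% rose and 0.957% fell. The 3 falls were those of the secreted factor genes Dkk3 and Ostn and the membrane receptor gene Musk. The call of Musk was lost in 10 of the 12 fits with 1 library left out. Dkk3 and Ostn were among the largest falls. Dkk3 (chromosome 7, 112116017 to 112159057, minus strand), of the Dickkopf family of Wnt pathway modulators, lay at 10.6, 9.04 and 4.72 CPM in vehicle females and 1.49, 1.63 and 2.17 CPM in tamoxifen females. Vehicle males had 55.2, 64.2 and 38.5 CPM and tamoxifen males 3.08, 6.35 and 4.80 CPM. It thus fell in both tables from levels that differed between them (log2 change -2.90 ± 0.33, adjusted p = 0.00278, edgeR). Ostn (chromosome 16, 27307489 to 27351212), the gene of the peptide musclin, lay at 185, 108 and 132 CPM in vehicle females and 36.8, 19.7 and 25.8 CPM in tamoxifen females, against 38.7, 34.6 and 45.8 CPM and 14.0, 21.9 and 21.5 CPM in males. Here the female vehicle libraries held the high levels, and the log2 change was -1.73 ± 0.30 (adjusted p = 0.021). That call was lost without female tamoxifen library 3 or male tamoxifen library 1 (adjusted p up to 0.0552). Ostn overlaps an antisense gene.

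Pla2g16 (chromosome 19, 7557459 to 7588545), a phospholipase of lipid turnover, lay at 170, 164 and 159 CPM in vehicle females and 75.1, 121 and 105 CPM in tamoxifen females. Males had 275, 266 and 281 CPM after vehicle and 125, 122 and 111 CPM after tamoxifen. The groups did not overlap in either table, and the log2 change was -0.96 ± 0.11 (adjusted p = 0.00121). Cuedc1 fell by 0.66 ± 0.08, from 201 to 272 CPM over the vehicle libraries to 122 to 176 CPM over the tamoxifen libraries of both tables, and Ermp1, an endoplasmic reticulum peptidase, fell by 0.63 ± 0.08.

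The remaining large falls included those of the phosphatase 1 subunit gene Ppp1r27 (-0.94 ± 0.13), the adaptor Shc2 (-1.14), the potassium channel subunit Kcnf1 (-1.19), the monocarboxylate transporter family member Slc16a9 (-1.0) and Tmem56 (-0.92). The complement gene C7 fell by 2.73 ± 0.45, with the high values in vehicle males at 10.3, 8.53 and 5.04 CPM and at most 0.404 CPM in all female libraries. The extracellular matrix gene Npnt fell by 1.10 and was high in males too, at 21.2 to 30.9 CPM after vehicle and 6.51 to 9.23 CPM after tamoxifen. Lrrc30, Crybb1 and Tmem132b fell by 1.0, 1.18 and 1.44. Of the 15 largest falls, 9 held in each of the 12 fits with 1 library left out. Besides Ostn, the calls of Lrrc30, Npnt, Crybb1, Tmem132b and the amino acid transporter gene Slc38a4 were lost in 2, 8, 7, 10 and 7 of them.

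The members past the threshold were also read through 28 lists of pathway genes and 9 lists of markers of other cell types. Of the pathway lists 12 had a member past the threshold in edgeR's test and 16 had 0. List medians ran from -0.35 to 0.40, against 0.01 over all genes tested, and the share of all genes past the threshold was 2.11%. The plot of list members shows the 12 lists with 1 to 3 members past the threshold among the 16 with 0.

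**Figure D2:**
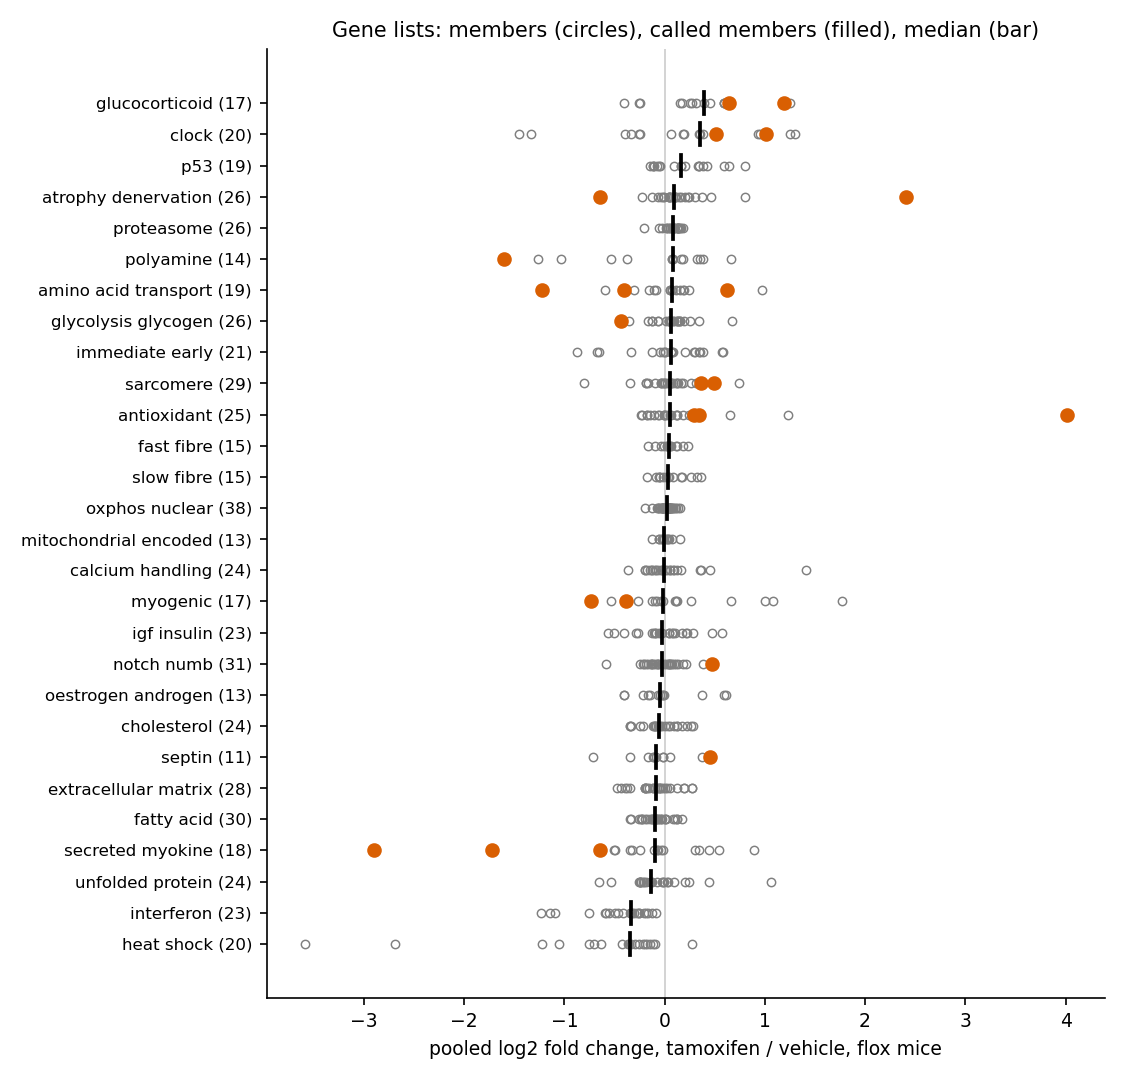
Pooled log2 fold change of tamoxifen over vehicle in flox mice for the tested members of 28 pathway lists (number tested in brackets). Circles are genes, filled circles passed an adjusted p of 0.05 and bars are list medians; the medians of the glucocorticoid and clock lists, 0.40 and 0.35, are the highest and those of the interferon and heat shock lists, -0.34 and -0.35, the lowest.

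The clock list holds the transcription factors of the circadian loop, their repressors and their outputs. Of 20 tested, 2 rose and 0 fell in edgeR's test, where 1.15% of all genes rose. The median log2 change was 0.35. At an unadjusted p under 0.05, 8 rose and 4 fell, against 1401 and 1357 of all 16194 genes. DESeq2 called 6 rises and 2 falls, against 442 and 352 of all genes. Per3, a member of the period family of repressors, lay at 27.7, 36.2 and 24.9 CPM in vehicle females and 48.3, 53.3 and 55.4 CPM in tamoxifen females. Males had 15.4, 29.7 and 29.9 CPM after vehicle and 56.0, 56.9 and 60.8 CPM after tamoxifen. No tamoxifen library overlapped a vehicle library, and the log2 change was 1.01 ± 0.16 (adjusted p = 0.00979). The repressor gene Bhlhe40 rose by 0.51 ± 0.12 (adjusted p = 0.0386), from 143 to 178 CPM to 183 to 286 CPM in females and from 54.6 to 82.3 CPM to 86.3 to 99.0 CPM in males; it overlaps an antisense gene, and its call was lost in 10 of the 12 fits with 1 library left out.

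Male vehicle library 3 weighed on the rest of this list. Per1 lay at 35.7, 42.9 and 48.2 CPM in vehicle females and 136, 157 and 177 CPM in tamoxifen females, and at 111, 108 and 90.3 CPM in tamoxifen males. The vehicle males had 27.0, 42.6 and, in library 3, 133 CPM, above every tamoxifen male. Arntl, the activator also called Bmal1, lay at 24.4, 17.2 and 8.13 CPM in the vehicle males, with library 3 again nearest the tamoxifen males at 5.6, 2.92 and 3.58 CPM. In females Arntl was 26.6, 19.8 and 29.8 CPM after vehicle and 15.3, 9.91 and 14.3 CPM after tamoxifen.

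Without male vehicle library 3, 7 clock genes rose and 2 fell of 20, where 331 of all 16930 genes tested passed (1.96%; 0.939% higher and 1.02% lower). Per1 then rose by 1.74 (adjusted p = 0.000254), Per2 by 1.45, the output factor gene Dbp by 1.09, Per3 by 1.04, the repressor gene Cry2 by 0.77, the deubiquitinase gene Usp2 by 0.69 and Tef by 0.38. The activators Arntl and Npas2 fell by 1.54 and 1.48, and Bhlhe40 no longer passed (adjusted p = 0.0763). With the library kept, the log2 values were 1.26 for Per1 (adjusted p = 0.158), 0.93 for Per2 (adjusted p = 0.30), 0.95 for Dbp (adjusted p = 0.0619), -1.45 for Arntl (adjusted p = 0.0526) and -1.33 for Npas2 (adjusted p = 0.146). The part of that library's other differences in these values was not tested. Without female tamoxifen library 1 instead, 1 clock gene rose and 0 fell, where 2.47% of all genes passed. With both libraries left out, 6 rose and 3 fell, where 2.66% of all genes passed.

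**Figure D3:**
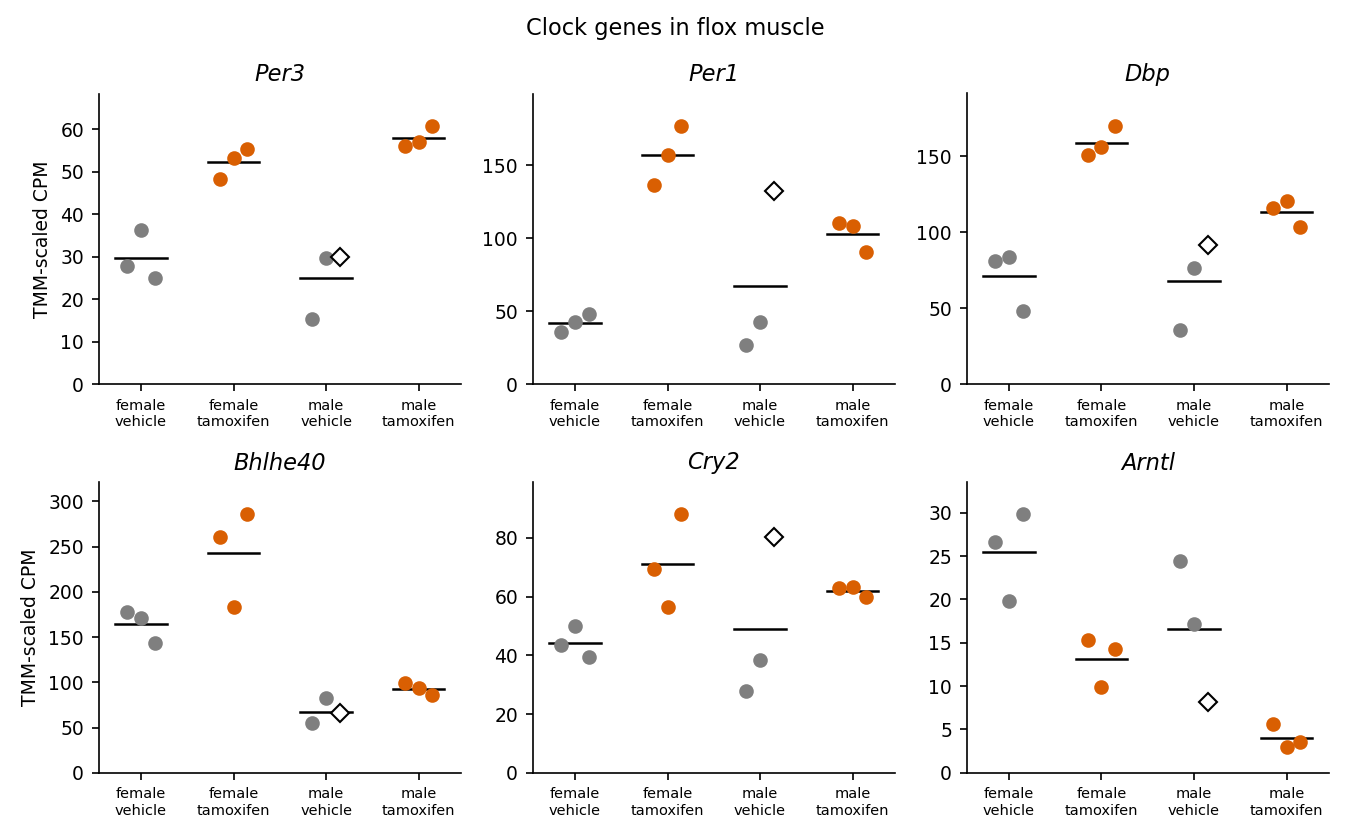
TMM-scaled CPM of 6 clock genes in each flox library (points are libraries, bars are group means, n = 3 each, linear axes from 0; the open diamond is male vehicle library 3). Per3 separates the groups in both tables with and without that library, whereas for Per1 and Cry2 the diamond lies above every tamoxifen male.

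The promoters of Per3 and Sgk1 are shown because these 2 genes had the smallest p of the clock and glucocorticoid lists, with the letters of searched motifs in capitals. For Per3 these are 2 matches to the D-box TTATGTAA, the motif bound by Dbp, Tef and Hlf (chr4:151044616-151044915, minus strand, GRCm38.p6, RefSeq, 250 bases before to 50 after the start).
Per3: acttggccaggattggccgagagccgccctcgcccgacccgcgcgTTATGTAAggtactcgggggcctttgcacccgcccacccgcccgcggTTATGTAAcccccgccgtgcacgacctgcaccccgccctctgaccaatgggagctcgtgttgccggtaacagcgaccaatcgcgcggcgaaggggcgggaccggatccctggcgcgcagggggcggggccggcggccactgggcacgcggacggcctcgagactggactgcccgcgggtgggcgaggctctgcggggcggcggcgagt
For Sgk1 they are a match to the E-box CACGTG and one to the glucocorticoid or androgen response element ACANNNTGT, in 1 of its 6 annotated promoter windows (chr10:21993640-21993939, plus strand); 1 other window holds the response element alone and the other 4 hold neither.
Sgk1: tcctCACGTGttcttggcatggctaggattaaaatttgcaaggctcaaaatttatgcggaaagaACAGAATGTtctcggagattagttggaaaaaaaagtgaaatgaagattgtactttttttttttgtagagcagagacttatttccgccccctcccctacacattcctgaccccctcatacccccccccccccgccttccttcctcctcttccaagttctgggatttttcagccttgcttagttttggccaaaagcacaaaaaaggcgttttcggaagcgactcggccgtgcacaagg
Both strands were searched. RefSeq promoter windows were matched for 129 of the 187 genes that rose and 104 of the 155 that fell. The E-box was in 14.0% of matched genes that rose and 9.62% of those that fell, against 11.5% of the 11136 tested genes with a window and 8.09% of all 27025 genes in the table. The D-box was in 4 of the 129 that rose (3.10%) and 1 of the 104 that fell (0.962%), against 0.70% of tested genes and 1.11% of all. The glucocorticoid or androgen response element was in 7.75% and 4.81%, against 5.42% and 7.90%. The ROR element and the oestrogen response element were in the windows of 0 genes past the threshold; they were in 0.189% and 0.00898% of tested genes. In the clock list 5 of 17 genes with a window held an E-box (29.4%).

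Genes that respond to glucocorticoids had the highest list median, 0.40. Of 17 tested, 2 rose and 0 fell in edgeR's test, where 1.15% of all genes rose. At an unadjusted p under 0.05, 8 rose and 0 fell, against 1401 and 1357 of all 16194 genes. DESeq2 called 5 rises, against 442 of all genes. Sgk1 (chromosome 10, 21882184 to 21999903), a kinase of ion transport and cell survival, lay at 111, 81.5 and 96.2 CPM in vehicle females, 194, 140 and 145 CPM in tamoxifen females, 118, 132 and 128 CPM in vehicle males and 173, 177 and 207 CPM in tamoxifen males. All tamoxifen libraries were above all vehicle libraries, and the log2 change was 0.65 ± 0.09 (adjusted p = 0.00278). The transcription factor gene Cebpd rose by 1.19 ± 0.18 (adjusted p = 0.00755), from 5.62 to 11.1 CPM over the vehicle libraries to 14.6 to 23.4 CPM over the tamoxifen libraries; it overlaps an antisense gene. Fkbp5, Pdk4 and Zbtb16, classical targets of the same receptor, had log2 values of -0.40, -0.26 and -0.24 and did not pass. Without male vehicle library 3, 5 members rose, where 0.939% of all 16930 genes tested rose. The added members were Per1, which the clock list also holds, Tsc22d3 (0.87) and Klf9 (0.39).

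Calls in growth and fibre maintenance lists are likewise set beside all genes tested, of which 1.15% rose and 0.957% fell. In the sarcomere list 2 of 29 rose and 0 fell, namely the titin cap gene Tcap by 0.49 ± 0.10 (adjusted p = 0.0161) and Nrap, of myofibril assembly, by 0.37 ± 0.08. Tcap lay at 1970 to 2277 CPM in vehicle females and 2830 to 3227 CPM in tamoxifen females, and at 1614, 1920 and 2616 CPM in vehicle males, with library 3 the highest, against 2655 to 2940 CPM in tamoxifen males. In the myogenic list 0 of 17 rose and 2 fell, both regulators of transcription: Myod1, which directs muscle differentiation, by 0.74 ± 0.15 and Eya1, a transcriptional cofactor and phosphatase, by 0.39 ± 0.09. Myod1 lay at 13.5 to 17.4 CPM in vehicle females and 7.94 to 13.9 CPM in tamoxifen females, which overlap, and at 16.7 to 21.1 CPM and 7.91 to 12.5 CPM in males. In the list on denervation and atrophy 1 of 26 rose and 1 fell, the fetal acetylcholine receptor subunit gene Chrng by 2.41 ± 0.46 at 1.54 CPM or less and Musk, the receptor kinase of the neuromuscular junction, by 0.65 ± 0.15. The slow fibre, fast fibre, proteasome, nuclear oxidative phosphorylation and mitochondrially encoded lists had 0 members past the threshold of 15, 15, 26, 38 and 13 in edgeR's test, DESeq2 and limma-voom. At an unadjusted p under 0.05 they had 0, 1, 3, 2 and 0, against 2758 of all 16194 genes. The slow fibre list turned on female tamoxifen library 1, which was low in Myh7. Without it 2 of 15 rose, Myl2, a slow myosin light chain gene, by 0.54 (adjusted p = 0.012) and Myoz2, of the Z-disc, by 0.49 (adjusted p = 0.0103), where 1.19% of all genes rose (2.47% passed in either direction), and the list median moved from 0.04 to 0.20. Without male vehicle library 3 as well, 3 rose, where 1.21% of all genes rose (2.66% in either direction), with a median of 0.26. With 1 library left out the calls of Nrap, Eya1 and Musk were lost in 7, 7 and 10 of 12 fits, and those of Myod1 and Chrng in 2 each.

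Calls in metabolic and transport lists are given beside all genes tested, of which 1.15% rose and 0.957% fell. In the antioxidant list 3 of 25 rose, Aldh3a1, the glutathione peroxidase gene Gpx1 by 0.29 ± 0.07 (adjusted p = 0.0316) and the glutathione transferase gene Gstm1 by 0.34 ± 0.08 at the threshold (adjusted p = 0.04998). Among 19 amino acid transporter genes, Slc43a1, for neutral amino acids, rose by 0.62 ± 0.12, while Slc38a4, of system A, fell by 1.23 ± 0.24 and the creatine transporter gene Slc6a8 fell by 0.41 ± 0.08. Polyamine genes had 1 fall of 14, Amd2, a copy of the S-adenosylmethionine decarboxylase gene Amd1 whose reads cannot be separated from it with certainty. Amd2 lay at 0.324 to 0.644 CPM in females and fell from 21.5 to 24.2 CPM to 4.80 to 5.6 CPM in males. In the glycolysis list 1 of 26 gene entries fell, another entry of Aldoa at 0.661 to 0.786 CPM in females and 43.6 to 79.8 CPM in males that may share reads with the main gene. The calls of Gpx1, Gstm1, Slc43a1, Slc38a4, Amd2 and Aldoa were lost in 8, 10, 4, 7, 5 and 4 of the 12 fits with 1 library left out.

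Interferon response genes lay below 0 together without passing singly. All 23 tested had a negative pooled log2 value, with a median of -0.34, against 7888 negative values among all 16194 genes. In edgeR's test 0 passed and 9 were lower at an unadjusted p under 0.05, against 1357 of all genes. DESeq2 called 3 falls, against 352 of all genes. The GTPase gene Iigp1 showed the pattern, at 3.58 to 7.67 CPM in vehicle and 3.40 to 5.92 CPM in tamoxifen females, and at 13.0 to 29.7 CPM in vehicle males against 4.0 to 4.83 CPM in tamoxifen males. Of the 23, 5 fell within the males, where 470 of all 16194 genes fell (2.9%), and 0 within the females, where 5 of all genes fell. Some immune cell markers were lower in the same male libraries, with 3 of 14 past the threshold and a male median of -0.33, while Cd163 was higher. The part of these markers in the interferon values was not tested. Without male vehicle library 3, 1 interferon gene fell, Oasl2 by 0.94 (adjusted p = 0.0307), and the list median was -0.45. Of 20 heat shock genes 19 had a negative value, 10 of them at an unadjusted p under 0.05, against 1357 falls among all 16194 genes. In edgeR's test 0 passed, and in DESeq2 1 fell, against 352 of all genes. Hsp90aa1 was at 359 CPM in male vehicle library 3 and 105 and 69.5 CPM in the other vehicle males. Without that library the list median moved from -0.35 to -0.20, and 1 of the 20 fell and 0 rose, where 1.02% of all genes fell. Without female tamoxifen library 1, or without both, 1 rose and 0 fell, where 1.19% and 1.21% of all genes rose.

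Numb and Numbl, the floxed genes, are a check on mice that should not recombine. Numb, an endocytic adaptor that restrains Notch signalling, lay at 24.9, 20.9 and 21.9 CPM in vehicle females and 19.5, 19.2 and 17.2 CPM in tamoxifen females, and at 19.9, 18.9 and 17.3 CPM and 15.7, 16.4 and 16.1 CPM in males. Each tamoxifen library was below each vehicle library of its table, and the pooled log2 value of -0.25 ± 0.06 did not pass (adjusted p = 0.0587). It passed in 5 of 25 alternatives, namely DESeq2 (adjusted p = 0.022), the fit on all 24 libraries (0.0263), without male vehicle library 3 (0.0365), without both libraries that stand apart (0.0384) and with equal weights for the tables (0.0437). Its homologue Numbl was higher in all tamoxifen libraries, at 2.77 to 2.90 CPM against 3.33 to 4.04 CPM in females and 3.51 to 4.23 CPM against 5.15 to 6.47 CPM in males. It rose by 0.47 ± 0.11 (adjusted p = 0.0323), but the call was lost in 9 of the 12 fits with 1 library left out (adjusted p up to 0.105). It was the only member past the threshold among 31 Notch and Numb genes, where 2.11% of all genes tested passed. Of 11 septins Sept11 rose by 0.45 ± 0.07 (adjusted p = 0.00591), a call that held in each of those fits. Both Numb and Numbl overlap exons of other annotated genes.

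Of the 9 marker lists 3 had 1 member past the threshold each and 6 had 0, where 2.11% of all genes tested passed. In bulk muscle fewer cells of a type and less RNA per cell cannot be told apart. Of 15 adipocyte markers 1 rose, Plin4, a lipid droplet protein also made by muscle fibres, by 0.64 ± 0.13 (adjusted p = 0.0266; lost without any 1 of the 6 male libraries). The summed level of these markers was 3209 to 4609 CPM in vehicle and 4827 to 7367 CPM in tamoxifen females, and 1591 to 2617 CPM and 5185 to 6277 CPM in males, and Car3, which muscle fibres also express, made up most of it. Without Car3 and Plin4 the sum overlapped between groups, at 168 to 228 CPM and 167 to 260 CPM in females and 162 to 245 CPM and 150 to 363 CPM in males. Adipoq, which defines adipocytes, lay at 1.72 to 7.81 CPM and 3.63 to 5.41 CPM in females and 3.65 to 8.26 CPM and 1.58 to 14.0 CPM in males. Of 14 immune markers 1 fell, the T cell receptor component gene Cd3e by 1.90 ± 0.42, at 2.61, 2.01 and 1.52 CPM in vehicle males, 0.336 to 0.592 CPM in tamoxifen males and at most 0.0747 CPM in females. That call was lost without male vehicle library 1 or 2 or any of the 3 male tamoxifen libraries (adjusted p up to 0.114), and in the fits on all 24 libraries and with equal weights for the tables. Of the 14, 11 had a negative pooled value, with a median of -0.27, against 7888 of all 16194 genes. DESeq2 called 3 falls, against 352 of all genes. Within males 3 of the 14 fell, Cd3e and the macrophage genes Lyz2 and Cd68, where 2.9% of all genes fell. The macrophage gene Cd163 was higher in males without passing, at 4.44 to 7.39 CPM after vehicle and 7.85 to 8.60 CPM after tamoxifen. Mrc1, another macrophage gene, overlapped between the male groups, at 4.53 to 9.33 CPM and 6.62 to 7.36 CPM. Lyz2 went from 26.7 to 36.7 CPM to 18.6 to 21.8 CPM in males, without overlap. The sum of all 15 listed immune markers was 67.6 to 83.9 CPM in vehicle and 61.2 to 72.2 CPM in tamoxifen females, and 82.6 to 132 CPM and 77.1 to 83.4 CPM in males. Musk was the 1 call among 11 satellite cell markers. The blood, endothelial, fibro-adipogenic, smooth muscle, Schwann cell and tendon lists had 0 in edgeR's test. At an unadjusted p under 0.05 they had 8 of 70 members, against 2758 of all 16194 genes.

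The common effect averages over tables with unequal estimates and unequal numbers of calls. Of the 342 genes, 336 had the same sign in both tables and 262 had the larger change in males. The median absolute log2 change was 0.41 in females and 0.66 in males. Fitted alone, the female table called 19 of its genes (0.131%) and the male table called 917 (6.15%). The pooled list shared 11 genes with the former, 57.9% of the 19 and 3.22% of the 342, and 227 with the latter, 24.8% of the 917 and 66.4% of the 342, while 112 passed in neither table alone. Pooled and single-table fits use the same libraries. The 342 were selected for an effect common to both tables, so their like signs follow largely from that selection. Numbers of calls also depend on the spread among replicates. A chi-square per degree of freedom compared the counts of replicate pairs and grows with spread and depth. For female tamoxifen library 1 it was 78.4 and 58.4 against libraries 2 and 3, which gave 19.8 together. It was 16.9 to 22.6 in vehicle females and 8.77 to 23.2 in males. The part of this spread in the unequal numbers was not tested.

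**Figure D4:**
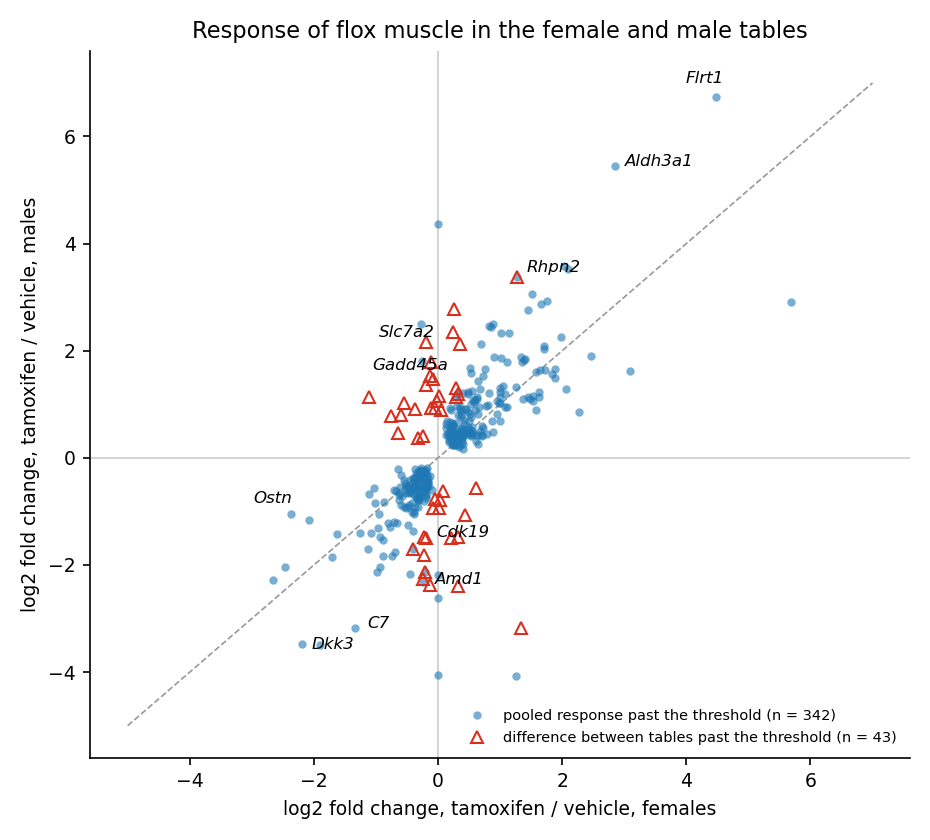
Log2 fold change of tamoxifen over vehicle in flox females (horizontal) and flox males (vertical) for the 342 genes of the pooled response (points) and the 43 genes whose response differed between the tables (triangles); the dashed line marks equal change. Most points lie in the 2 quadrants of like sign and farther from 0 on the male axis, and the triangles stand along the vertical axis.

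The male response minus the female response passed the test in 43 genes of 16194 (0.266%), 25 higher (0.154%) and 18 lower (0.111%). Of these, 41 had the larger change in males, 41 passed within males and 0 within females, and 5 also belonged to the pooled list. Amd1, which feeds polyamine synthesis, gave the smallest p together with Cdk19 and Gdap1 (adjusted p = 9.92e-05 for each). Its CPM were 73.7, 72.8 and 70.2 in vehicle females, 63.1, 70.9 and 48.7 in tamoxifen females, 1552, 1307 and 1403 in vehicle males and 332, 294 and 262 in tamoxifen males. Male vehicle libraries were thus far above all others, and the log2 change was -0.25 in females and -2.26 in males. Male tamoxifen libraries also lay above all females. Vehicle means in transgene mice were 28.5 CPM in females and 1898 CPM in males, scaled over those libraries only. Reads of Amd1 and its copy Amd2 cannot be separated with certainty. The kinase gene Cdk19, a neighbour of Amd1 on chromosome 10, went from 62.1, 64.6 and 70.1 CPM to 24, 24.2 and 22.6 CPM in males. All female libraries had 12.2 to 15.5 CPM of it. Gdap1, a mitochondrial outer membrane protein gene, went from 48.7, 38.7 and 36.6 CPM to 14.0, 16.0 and 14.8 CPM in males, with 10.9 to 16.6 CPM in all females.

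Genes with a rise in males took part as well. The cationic amino acid transporter gene Slc7a2 lay at 39.9, 33.7 and 40.5 CPM in vehicle males and 159, 135 and 215 CPM in tamoxifen males, against 67.2 to 98.0 CPM in all females (difference 2.36, adjusted p = 0.000518). The growth arrest gene Gadd45a lay at 7.59 to 8.92 CPM and 25.1 to 32.0 CPM in males and at 14.2 to 22.8 CPM in females (difference 1.90). Adh1, Neu2, Aebp1 and Angpt1 rose in males by 1.53, 1.47, 0.92 and 0.80 and had -0.13, -0.07, -0.38 and -0.60 in females, and the smoothelin-like gene Smtnl2 fell by 1.81 in males with -0.22 in females. The count of 43 was 26 and 28 without female vehicle library 3 and female tamoxifen library 3, 22 without male vehicle library 1, and 25 and 28 without male tamoxifen library 1 and 3. It was 136 without female tamoxifen library 1 and 71 without male vehicle library 2.

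The transgene mice gave the same measurement in libraries that the flox fit did not use, with vehicle controls of their own. In them tamoxifen is also meant to delete Numb and Numbl, so the drug and any deletion cannot be told apart there. The title and treatment field conflict for 3 male transgene libraries (vehicle against tamoxifen), and these were grouped by title. The same additive fit called 200 of 15677 genes (1.28%). Of the 342 flox genes 329 were tested there, and 300 had the same sign (91.2%), against 62.2% of the 15383 genes tested in both. The rises had a median log2 change of 0.30 in transgene mice and the falls -0.32, against 0.01 for all genes. In all 60 passed in the same direction, 33 rises and 27 falls, which is 18.2% of the 329 and 30.0% of the 200, and 0 passed in the opposite direction. The count of 200 fell to between 81 and 127 on leaving out any of the 6 female transgene libraries or male vehicle library 1 or 3 of that genotype.

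**Figure D5:**
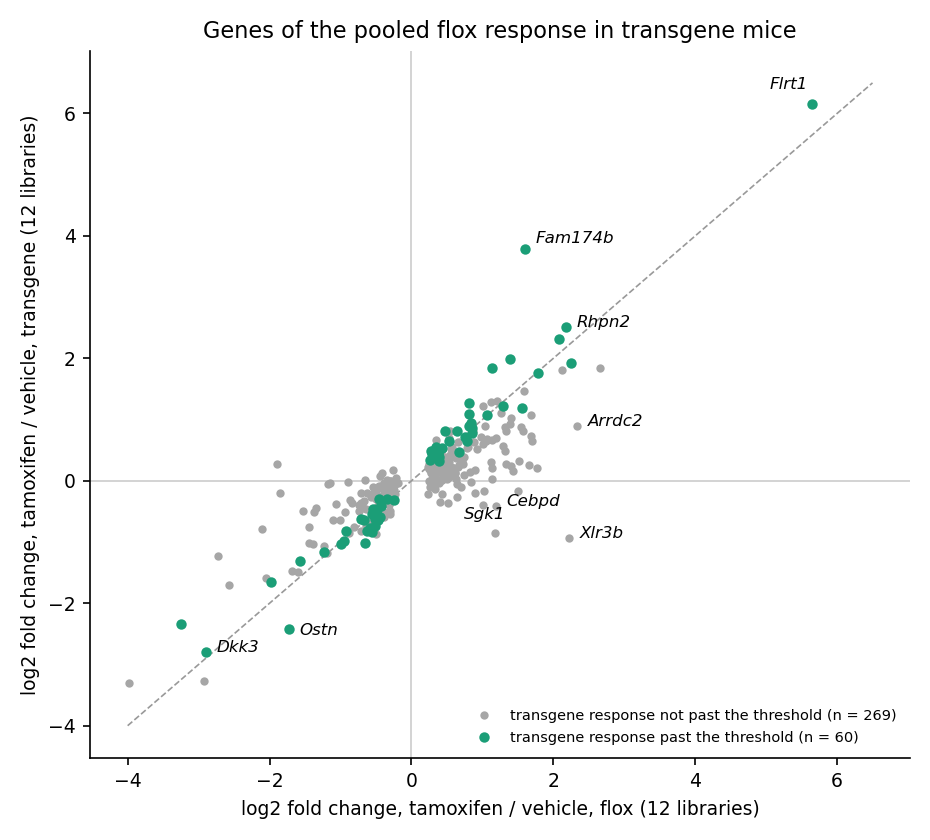
Pooled log2 fold change of tamoxifen over vehicle in flox mice (horizontal) against transgene mice (vertical) for the 329 flox genes tested in both; the fits share no library. Green points, 60 genes, passed the threshold in transgene mice too, and the dashed line marks equal change; 300 of the 329 lie in the quadrants of like sign.

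By gene, Flrt1 rose by 6.16 ± 0.23 in transgene mice, Rhpn2 by 2.52, Cyp4f39 by 2.31, Stum by 1.93, Ccdc125 by 1.77 and Xrcc2 by 1.22, and Dkk3, Ostn, Pla2g16 and Cuedc1 fell by 2.79, 2.41, 0.98 and 0.64, each past the threshold. Fam174b rose by 3.78 ± 0.42 there and by 1.59 in flox mice, a difference of -2.17 ± 0.48 that did not pass (adjusted p = 0.275). Arrdc2, Cebpd, Xlr3b and Numbl did not pass in transgene mice, with log2 values of 0.89, -0.41, -0.93 and 0.39, and their differences from flox mice did not pass either.

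The difference of the 2 responses passed the test in 2 of the genes tested over 24 libraries (0.012%) and in 19 by DESeq2, with 1318 at an unadjusted p under 0.05 among the genes of the flox fit. Both were rises in the pooled flox fit. Sgk1 was at 207 to 278 CPM in vehicle and 171 to 228 CPM in tamoxifen transgene females and at 238 to 291 CPM and 195 to 236 CPM in males, scaled over the transgene libraries only. Its transgene vehicle libraries thus lay above all flox vehicle libraries, and the response differed by 0.92 ± 0.14 (adjusted p = 0.0144). Tspan8, a tetraspanin gene, had log2 values of 0.41 ± 0.10 in flox and -0.35 ± 0.09 in transgene mice, a difference of 0.77 ± 0.11 (adjusted p = 0.0105). Within flox mice the value was 0.14 in females, whose groups overlapped, and 0.68 in males. That difference between the tables did not pass (adjusted p = 0.122, edgeR). Its flox call was lost in 10 of the 12 fits with 1 library left out. The count of 2 was 1 without flox female vehicle library 3 or flox male tamoxifen library 3, 4 without flox male vehicle library 2 or 3 and 6 without transgene male tamoxifen library 2.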

How the data were processed

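RNA from gastrocnemius muscle was sequenced in 24 libraries, 12 of them without the Cre transgene. The deposited tables hold whole-number read counts per gene. The submitters' processing notes name STAR, featureCounts, limma, GRCm38 and mm10; no source used here gives versions, the strand setting or the treatment of multi-mapping reads. Gene symbols, positions and exon overlaps came from a GRCm38 annotation, and promoter windows from RefSeq on GRCm38.p6.

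Genes were kept with filterByExpr (minimum count 10, minimum total 15), scaled by TMM and tested with edgeR 4.0.16 (R 4.3.3) quasi-likelihood tests with robust estimates, and p-values were adjusted by Benjamini-Hochberg over all genes tested, with a threshold of 0.05. The pooled model had a term for the table and 1 for tamoxifen. A 4-group fit on the same 12 libraries gave the response within each table and the difference between them. A fit on all 24 libraries gave the difference between genotypes. Log2 CPM, as in the principal components, use a prior count of 2, and log2 fold changes are those of edgeR's fit at its default. SE was taken as the log2 fold change over the square root of F. Alternatives included DESeq2 1.42.0, limma 3.58.1 (voom), other scalings and filters, and each library left out. The pipeline was tested on simulated data.

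Named genes were the 15 largest rises and 15 largest falls past the threshold with a named symbol, mean log2 CPM not below 0 and no overlap between groups in either table, the 3 smallest p-values in each direction, up to 3 members past the threshold per list, up to 10 genes that differed between tables, up to 5 that differed between genotypes, and Numb and Numbl. Other genes named were chosen after their values were seen. The members and gene lists were chosen with earlier results of these data known. Groups follow the sample titles. Of the genes that this rule names, 1 is not reported here.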

Additional observations from a re-analysis of the deposited data

Results flagged for a closer look

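Several genes stood out because the tamoxifen response differed between the male and female flox tables in the test of that difference (male minus female, log2, edgeR). Higher in males were Slc7a2 (2.36), Gadd45a (1.90), Adh1 (1.66), Neu2 (1.55), Angpt1 (1.40) and Aebp1 (1.29). Lower in males were Amd1 (-2.02), Gdap1 (-1.79), Smtnl2 (-1.58) and Cdk19 (-1.24). Adh1, Angpt1, Cdk19, Gadd45a, Neu2 and Slc7a2 overlap antisense genes. Sex and table cannot be told apart in these differences.

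Sgk1 and Tspan8 stood out because the pooled response differed between flox and transgene mice in the test of that difference. The flox minus transgene values were 0.92 for Sgk1 and 0.77 for Tspan8.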

How the results depend on the processing

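The pooled count of 342 stayed within 1.5 times under RLE scaling (329), upper-quartile scaling (400), no filter on low counts (497), a minimum count of 50 (341), limma-voom (339), no robust estimates (352) and the slow fibre mean as covariate (386). It was 794 with DESeq2, 29 without the table term, 575 in a fit on all 24 libraries, 19 in the female table alone and 917 in the male table alone, and 139 to 584 with 1 library left out; the cause was not tested. With an equal-weighted mean of the within-table effects, chosen after seeing the data, it was 660. Of the 342 genes, 118 held in each of the 12 fits with 1 library left out and 24 in all 25 alternatives.

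Same-numbered female libraries did not deviate together (correlations -0.17, -0.03 and -0.07), so the numbers were not taken as pairs. With the replicate block the count was 247.

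The count of 43 between tables was 757 with no filter on low counts, 272 with DESeq2, 22 to 136 with 1 library left out, and 232 without both libraries that stand apart, a setting chosen after seeing the data. The transgene count of 200 was 561 with DESeq2 and 81 to 176 with 1 library left out. The count of 2 between genotypes was 19 with DESeq2, 6 with no filter and 1 to 6 with 1 library left out.

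The pooled log2 value changed sign in the female table alone for Adh1 (-0.13), Gadd45a (-0.11), Neu2 (-0.076), Slc7a2 (-0.20), Gdap1 (0.32), Aebp1 (-0.38) and Angpt1 (-0.60), and for Angpt1 without male vehicle library 3 (-0.032) or male tamoxifen library 2 (-0.016), with a range up to 0.24 over the fits with 1 library left out. None of these had passed in the pooled fit.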
